A study of Drosophila melanogaster with 6 samples.

Results

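The Niemann-Pick type C genes of Drosophila melanogaster were followed in RNA-seq libraries of whole adult males, labelled as dERR mutant or control flies. The members were chosen by name, as the rows whose symbol is Npc1a, Npc1b or one of Npc2a to Npc2h, and all 10 listed names had a row among the 13035 genes of the table. The family was also selected on measured values, since it was proposed with the difference between dERR mutant and control libraries already known. The differences of the 10 genes between these groups are therefore given as a description, and nothing is tested with them. The 2 Npc1 genes and 8 Npc2 genes kept the same names in the newer Ensembl annotation.

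Estrogen-related receptor (ERR, dERR in the labels) is an orphan nuclear receptor known as a regulator of energy metabolism. The 3 dERR mutant libraries came from males of the genotype yw, hsFLP;; dERR[conditional] / dERR2 that were heated for 1 h on each of days 5 and 6 after egg laying (AEL). That heat switches on the FLP recombinase, which acts on the conditional allele. The 3 control libraries came from males of the same genotype, so with the dERR2 allele as well, that were not heated. All were day 6 adults on a regular diet. Exposure to heat and loss of dERR cannot be told apart in this design. The labels give neither the share of cells in which the conditional allele recombined nor whether a group's libraries came from separate cultures. The spread between libraries may therefore be technical. Levels are normalized counts, which are reads per gene divided by a size factor of the library. ERR itself had 112, 119 and 107 normalized counts in dERR mutant libraries, against 373, 497 and 539 in control libraries. Libraries held 13987814 to 16102936 reads assigned to genes, as worked out from the deposited values.

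Sterols that enter a cell by endocytosis reach the lumen of late endosomes and lysosomes. There a soluble NPC2 protein is known to bind the sterol and hand it to NPC1, a membrane protein with many transmembrane segments that passes it on to the rest of the cell. Loss of either protein in people causes Niemann-Pick type C disease, in which cholesterol collects in lysosomes. Flies cannot make sterols and depend on those in food, both for membranes and for the steroid hormone ecdysone. Fly Npc1a is the broadly used NPC1 protein and is needed for ecdysone production in larvae, while Npc1b is known for sterol uptake in the midgut. Among the Npc2 genes, Npc2a and Npc2b are known to act redundantly in sterol balance and ecdysone production. Npc2a, Npc2e and Npc2h proteins have been reported to bind cell wall products of bacteria.

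All 10 genes had a lower mean in dERR mutant than in control flies, but by very different amounts. The tandem pair Npc2h and Npc2g, Npc2f and Npc2d did not overlap between the groups. Npc2c showed the largest ratio on very few reads. Npc1a was lower by a small amount, and Npc2a, Npc2b and Npc1b overlapped between the groups. In 7 of the 10 genes each dERR mutant library lay below each control library, a pattern that 16.9% of all genes showed. In a limma fit across all 13035 genes, 6 of the 10 were called lower at an adjusted p under 0.05 and 0 higher, where 9.47% of all genes were called lower, 4.73% higher and 14.2% in either direction. The authors' deposited table, at the same threshold, also called 6 lower, against 9.04% of the genes it tested. The members were proposed with this contrast in view, so nothing is read from these counts.

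**Figure D1:**
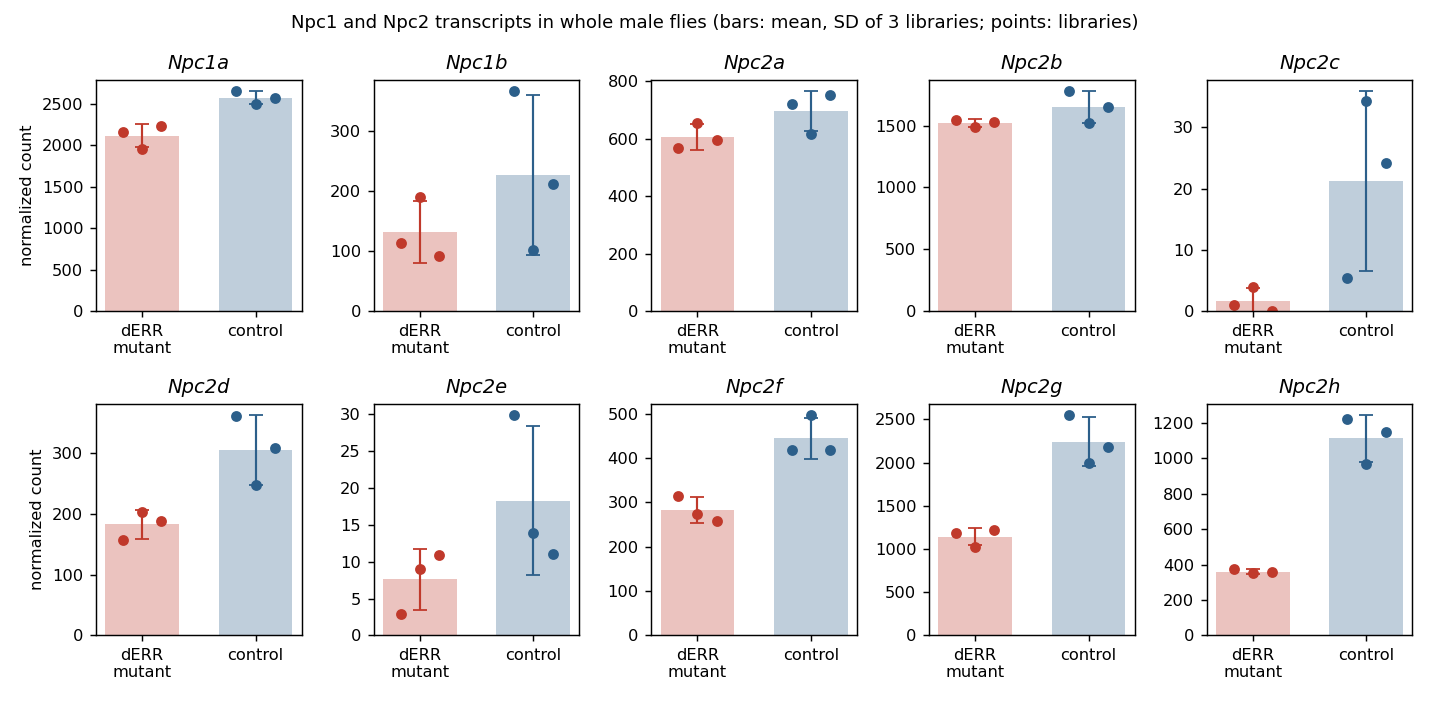
Normalized counts of the 10 Npc genes in 3 dERR mutant libraries (red, left) and 3 control libraries (blue, right); points are libraries, bars are means, error bars are SD, and each panel has its own axis from 0. The points of Npc2g and Npc2h lie far apart between groups, whereas those of Npc1b, Npc2a and Npc2b overlap.

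The pair Npc2g and Npc2h showed the widest gap between groups among the well expressed members. Npc2h (FBgn0039801; chromosome arm 3R, 26571200 to 26572010, dm3) had 374, 351 and 357 normalized counts in dERR mutant libraries, against 1224, 969 and 1147 in control libraries. The lowest control library thus exceeded the highest mutant library by 595 counts. Its mean was 361 ± 11.8 in mutant flies, which is 32.4% of the 1113 ± 131 in control flies (SD, n = 3 each), a log2 difference of -1.62 ± 0.09 (SE). The mutant libraries also lay closer together, at a coefficient of variation of 3.27%, against 11.8% among control libraries.

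Npc2g (FBgn0039800; 3R, 26570325 to 26570983, dm3) lies next to Npc2h on the same strand, with 216 bases between them and no other gene. It had 1180, 1028 and 1218 normalized counts in dERR mutant libraries, against 2549, 1992 and 2182 in control libraries. Its mean was 1142 ± 101 in mutant flies, 51.0% of the 2241 ± 283 in control flies, a log2 difference of -0.97 ± 0.10 (SE). The groups did not overlap for either gene of the pair. Both have a single exon in their longest annotated transcript and code for proteins of similar length, 159 residues for Npc2g and 157 for Npc2h. How alike their sequences are was not analysed here, so reads shared between the neighbours are a possible source of uncertainty.

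A second cluster on 3R holds Npc2e, Npc2d and Npc2c, with 1094 bases between Npc2e and Npc2d and 4212 between Npc2d and Npc2c. No other gene of the table lies between them, and Npc2d runs on the strand opposite to Npc2e and Npc2c. Npc2d (FBgn0037782; 3R, 5881077 to 5881805, dm3) was by far the most abundant of the cluster. It had 157, 204 and 188 normalized counts in dERR mutant libraries, against 362, 247 and 308 in control libraries. The groups were separate by 43.4 counts, a narrow gap beside the control spread. Its log2 difference was -0.73 ± 0.15 (SE), with means of 183 ± 24.1 in mutant and 306 ± 57.3 in control flies (SD, n = 3 each).

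Npc2c (FBgn0037783; 3R, 5886018 to 5886858, dm3) was close to the limit of detection. It had 1, 4 and 0 reads in dERR mutant libraries, against 5, 37 and 24 reads in control libraries. The empty library, mutant 3, held 14363697 reads, so a count of 0 allows up to 3 reads or 0.209 CPM (reads scaled to a common library total), from counting error alone. The highest mutant library and the lowest control library differed by a single read before scaling. The fitted log2 difference was -3.05 ± 0.73 (SE), but it moved to -1.82 with a pseudocount of 5 and to -3.52 with one of 0.5, and it is no reliable size. The gene was also not called without mutant 3, control 2 or control 3.

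Npc2e (FBgn0051410; 3R, 5879119 to 5879982, dm3) was almost as rare, with 3, 9 and 11 reads in dERR mutant libraries and 28, 15 and 11 in control libraries. After scaling, the highest mutant library and the lowest control library were practically equal, at 10.9 and 11.1 normalized counts. The log2 difference of -1.19 ± 0.48 (SE) was not called, and it ranged from -0.70 without mutant 1 to -1.50 without mutant 3. Little can thus be said of Npc2c and Npc2e at this depth.

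Npc2f (FBgn0039154; 3R, 19963616 to 19966658, dm3) lies far from the other members on its arm, with 779 or more rows between it and any of them. It had 315, 274 and 257 normalized counts in dERR mutant libraries, against 418, 496 and 417 in control libraries. The groups did not overlap, with 102 counts between them. The means were 282 ± 29.9 in mutant and 444 ± 45.5 in control flies (SD, n = 3 each), a log2 difference of -0.65 ± 0.11 (SE). No further role of Npc2f beyond its family is described here.

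The Npc2 genes with known roles in sterol balance differed least. Npc2a (FBgn0031381; 2L, 1988263 to 1988940, dm3) had 568, 655 and 597 normalized counts in dERR mutant libraries, against 723, 617 and 751 in control libraries. Control 2 lay below mutant 2, so the groups overlapped, and the log2 difference was -0.20 ± 0.09 (SE). It was called lower only among the alternatives with scaling to ribosomal protein genes, a scaling that moved the median of all genes to -0.16.

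Npc2b (FBgn0038198; 3R, 9915244 to 9918147, dm3) had 1548, 1487 and 1528 normalized counts in dERR mutant libraries, against 1783, 1525 and 1647 in control libraries. The mean was 1521 ± 31.4 in mutant flies and 1652 ± 129 in control flies (SD, n = 3 each), and control 2 fell within the mutant range. Its log2 difference of -0.12 ± 0.08 (SE) was the smallest of the family. It ran from -0.06 without control 1 to -0.17 without control 2, and was -0.03 with library size scaling.

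Of the membrane transporters, Npc1a (FBgn0024320; 2L, 10213891 to 10220957, dm3) had 2156, 1956 and 2227 normalized counts in dERR mutant libraries, against 2655, 2497 and 2563 in control libraries. The groups were separate by 269 counts, but the mean of mutant flies was still 82.2% of that of control flies. The log2 difference was -0.28 ± 0.07 (SE). The call of Npc1a ended with library size scaling and without mutant 1, mutant 2, control 1 or control 3.

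Npc1b (FBgn0261675; X, 20805979 to 20810408, dm3), the midgut paralog, was the most variable member with more than a few reads. It had 114, 189 and 91.6 normalized counts in dERR mutant libraries, against 366, 102 and 211 in control libraries. Control libraries alone spanned 3.59-fold, and control 2 lay inside the mutant range. The log2 difference was -0.66 ± 0.39 (SE), and it ranged from -0.23 without control 1 to -1.15 without control 2. In the fit without control 2 it was called lower.

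Levels were compared between members per kilobase of the longest annotated transcript, which runs from 651 bases for Npc2a to 5025 for Npc1a. In control flies the order ran Npc2g, Npc2b, Npc2h, Npc2a, Npc2f, Npc1a, Npc2d, Npc1b, Npc2c and Npc2e. Npc2g led at 3401 ± 430 normalized counts per kilobase, followed by Npc2b at 1969 ± 153 and Npc2h at 1371 ± 161 (SD, n = 3). Neighbours in this order were separate in each control library except Npc1a and Npc2d, Npc1b and Npc2c, and Npc2c and Npc2e, whose ranges overlapped. In dERR mutant flies the order changed at the top, with Npc2b at 1813 ± 37.5 and Npc2g at 1733 ± 153 per kilobase in overlapping ranges. Npc2a came next in mutant flies at 932 ± 68.5, above Npc2h at 444 ± 14.5, although Npc2h lay above Npc2a in each control library. In the mutant order Npc2h also overlapped Npc1a, Npc1a overlapped Npc2f, and Npc2e overlapped Npc2c.

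**Figure D2:**
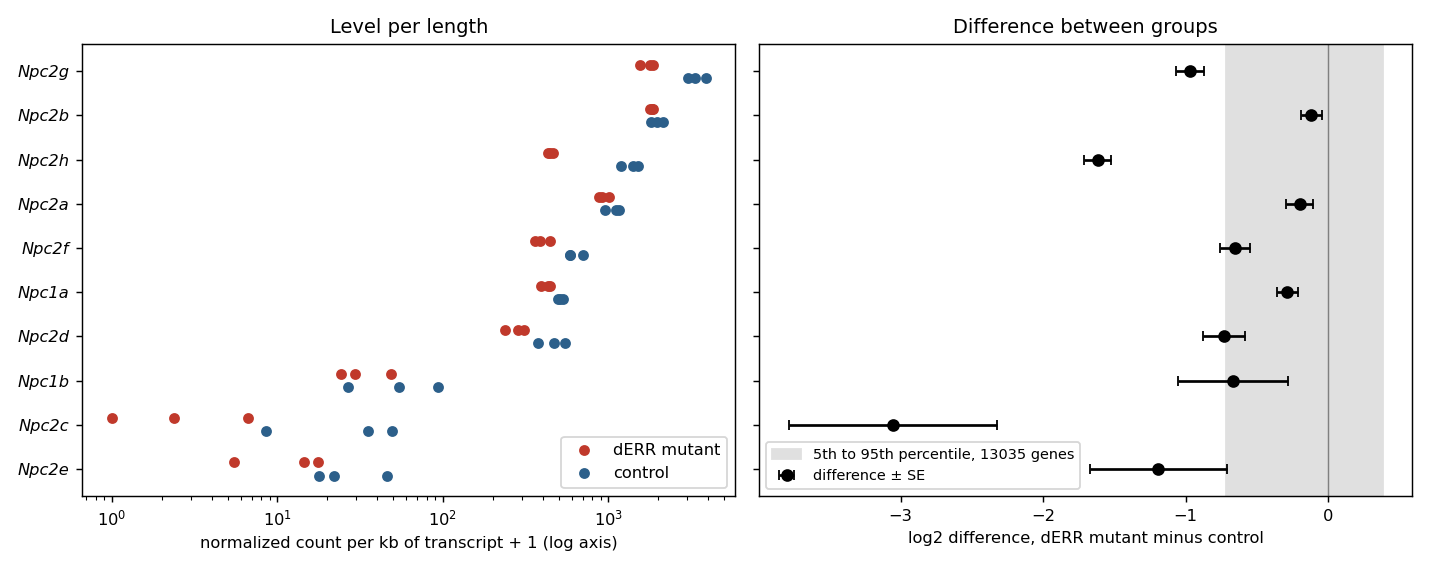
Left, normalized counts per kilobase of transcript plus 1 on a log axis for 3 dERR mutant libraries (red, upper) and 3 control libraries (blue, lower), genes sorted by control level. Right, log2 difference of dERR mutant minus control with its SE; the grey band holds the middle 90% of all 13035 genes, and Npc2h, at -1.62, lies outside it.

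The makeup of the Npc2 transcripts differed as well, and ratios within a library do not depend on how libraries were scaled. Npc2h stood at 0.317, 0.341 and 0.293 of Npc2g in dERR mutant libraries, against 0.480, 0.486 and 0.526 in control libraries. The pair therefore did not shift by an equal factor, and the ranges of this ratio did not overlap. Npc2g stood at 0.762, 0.692 and 0.797 of Npc2b in mutant libraries, against 1.43, 1.31 and 1.32 in control libraries. Npc2b was thus the Npc2 gene with the most counts in mutant libraries, and Npc2g in control libraries. Npc2h made up 8.79 ± 0.21% of all Npc2 counts in mutant and 17.1 ± 0.63% in control libraries (SD, n = 3 each). The share of Npc2b was 37.1 ± 0.29% in mutant and 25.5 ± 0.38% in control libraries. The share of Npc2f, at 6.87 ± 0.71% in mutant and 6.91 ± 1.33% in control libraries, overlapped between the groups. So did that of Npc2d, at 4.46 ± 0.65% in mutant and 4.68 ± 0.46% in control libraries. Summed over the 8 genes, Npc2 counts were 4146, 4013 and 4156 in mutant libraries, against 7094, 5895 and 6488 in control libraries. These sums and shares follow from the members' own differences and are given without a test.

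**Figure D3:**
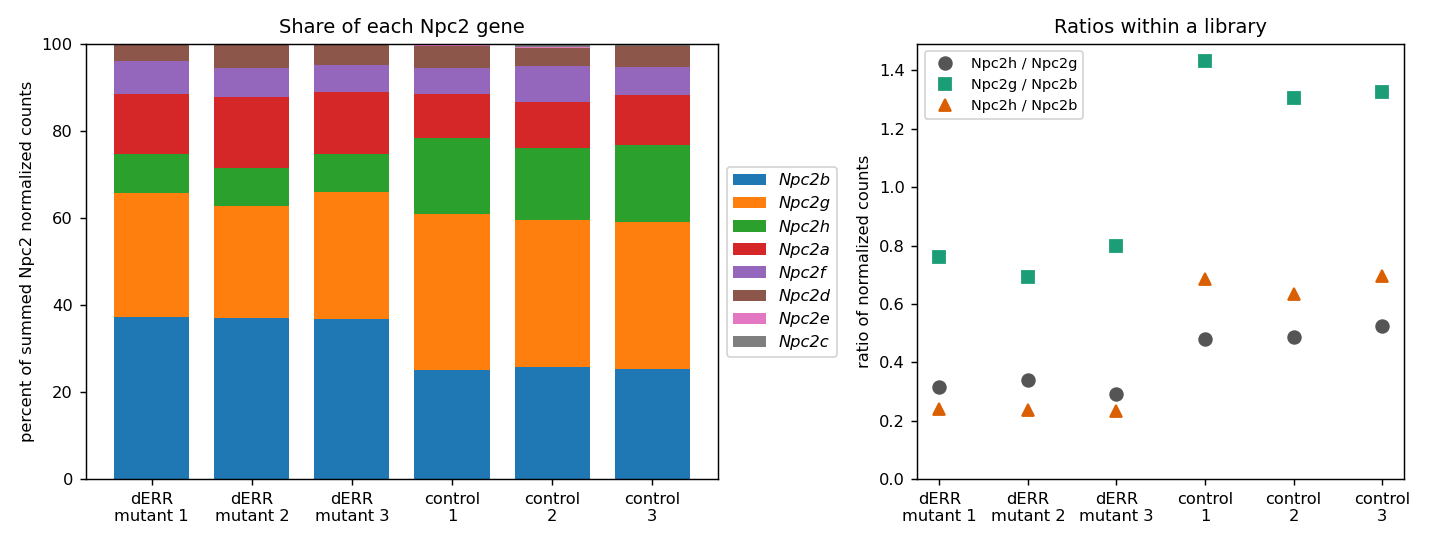
Left, percent of summed Npc2 normalized counts taken by each Npc2 gene in each library, dERR mutant libraries first. Right, ratios of normalized counts within a library; each ratio lies lower in the 3 mutant libraries than in the 3 control libraries, for example at most 0.341 against at least 0.480 for Npc2h over Npc2g.

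Genes that lie directly beside the members served as a comparison that the choice of members did not use. Of 14 such genes 3 were called lower in dERR mutant flies and 0 higher (limma, adjusted p under 0.05), with a median log2 difference of 0.03. Over all genes 9.47% were called lower and the median was 0.00. No gene beside the Npc2g and Npc2h pair was called. CG15543, 687 bases from Npc2g, had a log2 difference of 0.22 ± 0.11 (SE; adjusted p = 0.244, limma). The transcription factor gene zfh1, as far as 19636 bases from Npc2h, had -0.04 ± 0.12 (adjusted p = 0.869, limma). Beside the 3R cluster, Fancl, 533 bases from Npc2e, had -0.28 ± 0.11 (adjusted p = 0.128, limma). On its other side nerfin-2, 9979 bases from Npc2c, had 0.22 ± 0.29 (adjusted p = 0.687, limma). Beside Npc2f, sec10 had -0.04 ± 0.09 and Kal1 0.27 ± 0.11, and neither was called.

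The genes beside members that did fall were Got2, Ser6 and Pros35. Got2, a mitochondrial aspartate aminotransferase 474 bases from Npc2a, fell to 3472 ± 237 normalized counts in dERR mutant flies, against 6139 ± 376 in control flies (SD, n = 3 each). Its log2 difference was -0.82 ± 0.08 (SE; adjusted p = 5.41e-05, limma), while Npc2a overlapped between the groups. Ser6, a serine peptidase gene 23220 bases from Npc1b, fell by 0.92 ± 0.11 on the log2 scale (SE; adjusted p = 1.82e-04, limma). The proteasome subunit gene Pros35, beside Npc1a, changed by -0.26 ± 0.08 (adjusted p = 0.0463, limma), close to Npc1a itself. The call of Pros35 ended under 4 of the 5 other scalings and in each fit that left out 1 library, except the fit without control 2.

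For each of the 8 members above 5 CPM, the genes with the most similar profile over the 6 libraries were looked up by the root mean square difference of centred log2 values, among 10685 other genes. The nearest to Npc2h was Pgi, the glycolytic enzyme phosphoglucose isomerase, at 0.08, followed by CG16756. Pgi had 3105, 3023 and 3097 normalized counts in dERR mutant libraries, against 9047, 8096 and 9370 in control libraries. Nearest to Npc2g was Ork1, a potassium channel gene, at 0.05, then CG9747. Npc2f lay closest to Seminase (Sems), at 0.06, then CG8997, and Npc2d to CG33494, at 0.10, then Skeletor. Npc1a lay closest to Dcr-2, a Dicer ribonuclease gene, Npc2a to CG12134 and Npc2b to alpha-Man-I, all within 0.03. No close profile was found for Npc1b, whose nearest gene, asparagine-synthetase, stood at 0.39. These distances describe 6 libraries in 2 groups and carry no test.

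The other genes of sterol handling were read from 5 lists with 76 members, of which 66 were matched. Among them 17 fell and 3 rose in dERR mutant flies (limma, adjusted p under 0.05), and their median log2 difference was -0.05. Over all genes 9.47% fell and 4.73% rose, so 0 or 1 call in a list of 7 genes is near the background. Differences between the lists were not tested. The lists were drawn up with earlier results of these data known.

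Of 20 genes for sterol uptake, scavenger receptors and esterification, 8 fell and 1 rose, with a median log2 difference of -0.19. Rfabg, the precursor of the lipophorin that carries sterols in the blood, had 11398, 7828 and 9317 normalized counts in dERR mutant libraries, against 37490, 35014 and 35400 in control libraries (log2 difference -1.93 ± 0.12, SE; adjusted p = 3.08e-06, limma). CG2736, of the CD36 scavenger receptor family, fell to 666 ± 66.7 in mutant flies, against 1871 ± 250 in control flies (SD, n = 3 each; adjusted p = 7.54e-06, limma). Mtp, which loads lipid onto lipophorin, fell by 0.80 ± 0.08 on the log2 scale (SE; adjusted p = 6.32e-05, limma). CG8112, the fly homolog of the enzyme that esterifies sterols for storage, went the other way. It had 982, 1044 and 840 normalized counts in mutant libraries, against 520, 609 and 470 in control libraries, a rise of 0.84 ± 0.11 (log2, SE; adjusted p = 4.25e-04, limma).

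Of 12 genes for transfer of sterols and lipids inside the cell, 4 fell and 0 rose, with a median of -0.17. The falls were in genes annotated as sterol carrier proteins, a grouping made after values were seen. CG11151 changed by -0.65 ± 0.08 (log2, SE; adjusted p = 1.76e-04, limma), CG5590 by -0.59 ± 0.09 (adjusted p = 8.18e-04, limma), CG17597 by -0.48 ± 0.08 (adjusted p = 1.53e-03, limma). ScpX, named here after its value was seen, changed by -0.46 ± 0.08 (adjusted p = 2.45e-03, limma). CG12269, another gene of that annotation, was not called, at -0.17 ± 0.14 (adjusted p = 0.477, limma).

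Of 20 lysosomal genes, 5 fell and 1 rose, with a median of -0.11. The beta-galactosidase gene Gal changed by -0.64 ± 0.07 (log2, SE; adjusted p = 1.08e-04, limma), the hexosaminidase gene Hexo2 by -0.60 ± 0.09 (adjusted p = 1.33e-03, limma) and CG15533, of the acid sphingomyelinase group, by -0.90 ± 0.19 (adjusted p = 7.91e-03, limma). The call of CG15533 ended with a robust variance prior. Ect3, another beta-galactosidase gene, rose by 0.33 ± 0.09 (adjusted p = 0.0387, limma), a call that ended with scaling to ribosomal protein genes and without mutant 1, mutant 3, control 2 or control 3. Without mutant 3 or without control 3 the number of called lysosomal genes was 3.

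Of 7 regulators of sterol handling, 1 rose and 0 fell, with a median of 0.10. HLH106, the sterol regulatory element binding protein, which in flies answers to phospholipid rather than to sterol, had 5649, 5778 and 5903 normalized counts in dERR mutant libraries, against 4560, 4044 and 4400 in control libraries. It rose by 0.42 ± 0.07 (log2, SE; adjusted p = 2.68e-03, limma), a call that ended with scaling to ribosomal protein genes, where it stood at 0.26 (adjusted p = 0.0748, limma). Of 12 genes listed for the making and turnover of ecdysone 7 were matched, and the enzyme genes spo, spok, sro, phm and dib were not analysed here. Of these 7, 0 passed in limma-trend or limma-voom. An unadjusted p under 0.05 was reached by Cyp18a1 alone, which codes for an enzyme that inactivates ecdysone (0.34 ± 0.14, log2, SE). The gene shd, named like Cyp18a1 after its value was seen, was called higher without control 2. The most abundant, woc and mld, which code for nuclear regulators of that pathway, had log2 differences of -0.06 ± 0.08 and 0.02 ± 0.17 (SE).

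**Figure D4:**
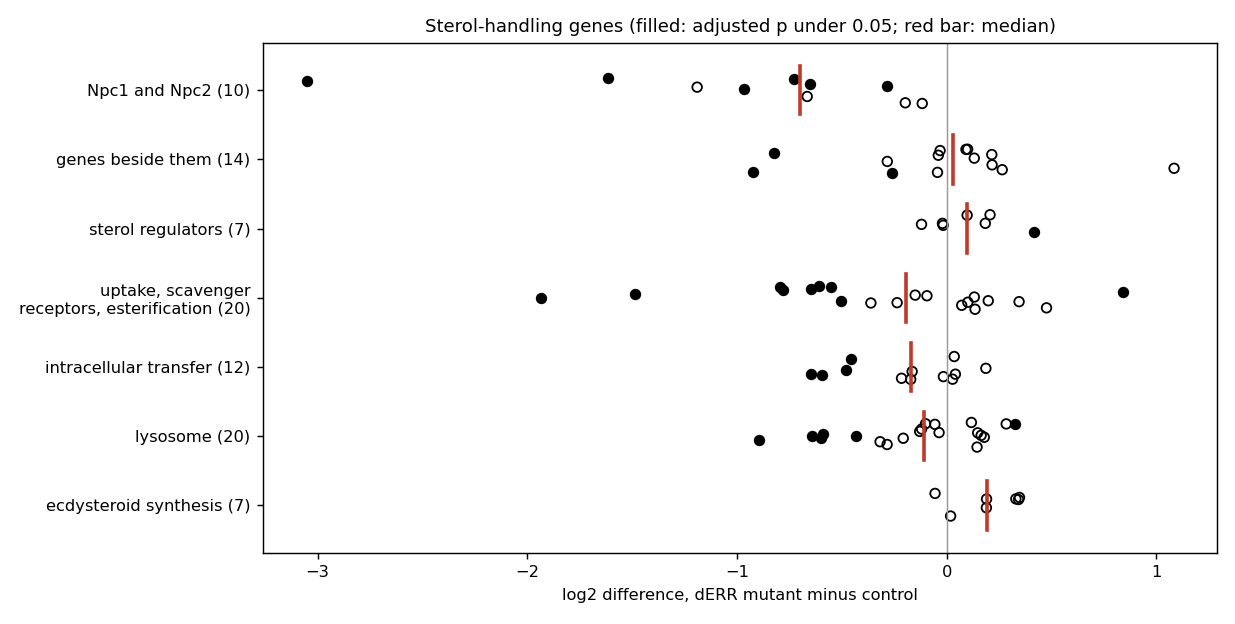
Log2 difference of dERR mutant minus control for the 10 Npc genes, the 14 genes beside them and the measured members of 5 sterol lists (numbers in brackets). Each point is a gene, filled where the adjusted p was under 0.05 in limma, and the red bar is the median, -0.70 for the Npc genes and between -0.19 and 0.19 for the others. The Npc genes were proposed with this contrast known, so nothing is read from their median.

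Whole flies were sequenced, so fewer cells of a type and less RNA per cell cannot be told apart. Markers of several tissues moved between the same libraries. Over all genes 9.47% were called lower and 4.73% higher. The 1 or 2 calls in the hemocyte, Malpighian tubule and female lists are thus near the background. Of 16 midgut markers 11 fell and 0 rose, with a summed level of 4931 to 6136 CPM in dERR mutant libraries and 6503 to 7425 in control libraries. The trypsin gene thetaTry and the Jonah peptidase gene Jon65Aiii were among them. The trypsin gene betaTry, named here after its value was seen, lay higher, at 0.20 ± 0.09 (log2, SE). It was called higher with library size and quantile scaling. The most abundant marker, alphaTry, also named afterwards, stood at -0.07 ± 0.09 and was not called. Counting both directions, 8 midgut markers were called with a robust variance prior and without mutant 2 or control 2, and 13 with ribosomal scaling. The midgut sum was 6136, 4931 and 5526 CPM in mutant libraries, where Npc1b had 114, 189 and 91.6 normalized counts. In control libraries it was 6503, 7098 and 7425 CPM, where Npc1b had 366, 102 and 211 normalized counts. Of 8 fat body markers, among them Rfabg and Mtp, 7 fell and takeout (to) rose. The call of takeout ended with ribosomal scaling and without mutant 1, mutant 3, control 2 or control 3. Among the falls, that of AkhR (GRHR in the table), named after its value was seen, ended without mutant 2, mutant 3, control 1 or control 3. Without mutant 3 or control 3, 6 fat body markers were called. The 8 markers had sums of 999 to 1250 CPM in mutant and 3475 to 4240 in control libraries. Lsp2, a storage protein gene, had a log2 difference of -5.61 and Pepck, of gluconeogenesis, -3.87. Of 16 accessory gland markers 15 fell, and all 5 markers of ejaculatory duct and bulb fell, 4 of them without mutant 3 or control 3 and with quantile scaling. Of 9 hemocyte markers 2 fell, with overlapping sums. That count was 0 without control 1, 1 without mutant 2, mutant 3 or control 3 and with library size scaling, and 3 without mutant 1. Of 10 Malpighian tubule markers 2 fell. Counting both directions, 1 was called without mutant 2, mutant 3 or control 2, 3 without mutant 1 or control 1 and with library size or upper quartile scaling, and 4 with quantile scaling. Of 21 testis markers 0 were called in limma-trend or limma-voom. An unadjusted p under 0.05 (limma-trend) was reached by 6 of them, beside 3476 of all 13035 genes, a similar share. Library size scaling called 5 testis markers higher, beside 1293 of all genes. Either without mutant 1 or with upper quartile scaling, 2 testis markers were called, and 1 with a robust variance prior. Of the list for female tissue 4 genes were matched, the yolk protein genes Yp1, Yp2 and Yp3 and the germline gene nos, with sums of 7.10 to 10.9 CPM in mutant and 13.2 to 15.5 CPM in control libraries. Yp3, at a mean of 9.51 CPM, made up most of that sum, and yolk protein genes are known from fat body and follicle cells, not germline. Yp3 fell, a call that ended without mutant 1, control 1 or control 2, and nos was not called. Which tissue the Npc transcripts came from, and the part of these tissue differences in them, was not tested.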

How the data were processed

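Poly(A) RNA from whole male flies was sequenced with a strand-marking kit in 3 dERR mutant and 3 control libraries. The authors deposited read counts per gene divided by 1 size factor per library (normalized counts, a signal with no further unit), with dm3 coordinates. Novoalign and DESeq2 are named in the submitters' processing notes. No counting tool is named there or in the labels. The authors' deposited table also holds DESeq2 log2 fold changes, standard errors and test statistics (scores), and p-values, of which only calls at an adjusted p under 0.05 were used. Values of a library were multiples of 1 constant step (whole within 1e-06), which gave reads per gene and the depth of 13987814 to 16102936 reads per library. These reads are values worked out here, and in mutant 2, mutant 3 and control 3 the step (0.994, 0.995 and 1.01) was too near 1 for an independent check. Counting error limits the rarest genes, and floors cover that error only.

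Differences are dERR mutant minus control on the log2(normalized count + 1) scale, which understates changes of low genes. They were fitted with limma-trend (limma 3.58.1, R 4.3.3) on all 6 libraries by group alone, without a filter on low values, and adjusted by Benjamini-Hochberg over 13035 genes. The fit was tested on simulated data that gave all genes the same relative spread beyond counting error. Only well expressed genes were changed there, so rare members such as Npc2c and Npc2e were not covered. Summaries used pandas 2.3.3 and numpy 2.4.6. Transcript lengths, strands and exons came from the Ensembl annotation of the newer build, which replaced the RefSeq transcripts planned for and held 12526 of the 13035 identifiers. No coordinates were taken from it. Of 178 listed symbols 155 were matched.

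The members and lists were chosen with earlier results of these data known. Besides the members and ERR, the genes named are up to 3 per direction and sterol list by adjusted p (the 2 most abundant where 0 passed), up to 2 per direction and marker list, the rows beside members and the 2 nearest profiles. Other names, marked so or not, were chosen after values were seen, among them LpR1, LpR2, Hr96 and CG12269. Replicates are numbered by accession order. The labels do not say that libraries are separate cultures, so p-values measure the spread between these libraries. Alternatives were other pseudocounts, scalings, filters and variance priors, limma-voom, and leaving out each library. Promoter and protein sequences were not analysed here.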

Additional observations from a re-analysis of the deposited data

How the results depend on the processing

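Under the 17 alternatives each tested member kept a negative difference, and 8 of 166 member values moved by more than 1 SD. Members called lower numbered 6, beside 1234 of all 13035 genes. They numbered 5 with library size scaling (Npc1a not called), beside 992 genes. With scaling to 92 ribosomal protein genes they numbered 7 (Npc2a added), beside 2069 genes. A filter of 1 or 5 CPM, which removed Npc2c and Npc2e, left 5, beside 1228 of 12332 and 1160 of 10693 genes. With 1 library left out they numbered 4 to 6, beside 926 to 1139 genes. Npc2d, Npc2f, Npc2g and Npc2h were called in all 17. The members were proposed with this contrast known, so nothing is read from these counts. The span without 1 library was -1.71 to -1.54 for Npc2h and -1.05 to -0.87 for Npc2g.

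Scaling set the balance of calls over all genes. The main fit called 1234 genes lower and 617 higher, library size scaling 992 and 1293, quantile scaling 1080 and 919, and ribosomal scaling 2069 and 206, where the median of all genes stood at -0.16. With 1 library left out, 330 to 563 genes were called higher. Ribosomal scaling left 0 called sterol regulators. Leaving out 1 library gave 3 to 6 called lysosomal genes and 0 to 1 on the ecdysone list. The cause was not tested. Among the genes of the lists and those beside members, 0 of 2813 values changed sign in a gene called in the main or the alternative fit. Sign changes of genes called in neither fit were not counted. In the same set 74 calls were lost and 42 gained. ERR and the genes of similar profile were not included.

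No paired analysis was possible because the labels give no numbers that pair libraries. The planned count models were not run, because in 3 libraries the step that gives reads lay too near 1 to be checked. Npc2c and Npc2e, with at most 37 reads in any library, are limited by depth.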

Other observations

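The remaining called genes for sterol uptake and for scavenger receptors, named here after their values were seen, all lay lower in dERR mutant flies. The receptor genes of the CD36 family Snmp2, CG3829 and CG1887 had log2 differences of -0.55 ± 0.08, -0.65 ± 0.07 and -0.78 ± 0.14 (SE; adjusted p = 7.44e-04, 1.33e-04 and 3.56e-03, limma, n = 3 libraries each). CG15828, from the same list, averaged 2406 ± 394 normalized counts in dERR mutant flies and 3659 ± 517 in control flies (SD, n = 3 each). The gut lipase gene mag, whose product releases sterols from their esters in food, had 1394, 1385 and 1539 normalized counts in mutant libraries, against 2011, 1745 and 2426 in control libraries (log2 difference -0.51 ± 0.11, SE; adjusted p = 9.75e-03, limma).

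With all libraries and the authors' scaling, the lipophorin receptor genes LpR1 and LpR2 were not called. LpR1 had a log2 difference of 0.13 ± 0.08 and LpR2 of -0.36 ± 0.12 (SE). LpR2 was called lower without mutant 3 (-0.51, adjusted p = 0.0101, limma) and with ribosomal scaling (-0.52, adjusted p = 0.0218, limma). Hr96, a nuclear receptor that is known to bind cholesterol and to govern mag and Npc1b in the gut, averaged 427 ± 12.1 normalized counts in dERR mutant flies and 432 ± 29.2 in control flies (SD, n = 3 each; adjusted p = 0.923, limma).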
